A study of Mus with 16 samples.

Results

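DNA methyltransferases add methyl groups to cytosines, mostly where a cytosine is followed by a guanine. Dnmt1 is the maintenance enzyme, which copies the methylation of the parental strand onto the new strand after replication. Dnmt3a and Dnmt3b are the de novo enzymes, which methylate sites that carried no mark, and Dnmt3b is the form known for its high expression in the epiblast of the implanted mouse embryo. Epiblast stem cells are the cultured pluripotent cells of that stage.

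The members are 3 single transcripts, picked by their Ensembl transcript ID alone: ENSMUST00000004202 (version 17) for Dnmt1, ENSMUST00000020991 (version 15) for Dnmt3a and ENSMUST00000109774 (version 9) for Dnmt3b. All 3 were listed among the 116747 transcripts of each table and all 3 were among the 56721 tested. They are not sums over a gene, so a difference in the level of a gene and a difference in which of its transcripts is used cannot be told apart. In mouse embryonic stem cells a shorter Dnmt3a isoform from an internal promoter is known as the main form, and the tables do not name the isoform that the listed Dnmt3a transcript encodes. RefSeq on GRCm38.p6 places the gene Dnmt1 on chromosome 9 from 20907206 to 20959888, Dnmt3a on chromosome 12 from 3801559 to 3914443 and Dnmt3b on chromosome 2 from 153649411 to 153687730, found by symbol.

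The study derived epiblast stem cell lines of F1 hybrids between C57Bl/6J laboratory mice and 4 wild-derived inbred strains, giving the crosses CastB6, MolfB6, PwkB6 and SpretB6, and sequenced them to see how well alleles can be assigned in bulk and in single-cell RNA. Each cross has 4 libraries of ribodepleted total RNA sequenced in bulk, with the numbers 1, 3, 5 and 6 in CastB6, PwkB6 and SpretB6 and 1, 2, 3 and 6 in MolfB6. All 16 share the C57Bl/6J parent, the labels name no treatment, and they give neither the sex, the passage nor the number of independent lines. Because separate cultures are not stated, p-values here reflect nothing beyond how these libraries vary, and that variation may be technical. The deposited tables hold no alleles, and they name no genes, so the labelled cell type could not be checked against marker genes and the other genes of the methylation pathway could not be picked out.

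The libraries held 42596559 to 72364991 estimated counts. PwkB6 6 stood apart in scale. Its TMM factor, by which edgeR corrects a library's total for differences in RNA composition, was 1.19, against 0.88 to 1.06 in the 15 others. Levels are therefore given both as TPM (the share of a library's transcripts on a fixed scale, corrected for transcript length) and as TMM-scaled CPM (the share of the corrected read total, with no correction for length). In bulk RNA, fewer expressing cells and less RNA per cell cannot be told apart.

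The listed Dnmt1 transcript, of 5367 bases, was the steadiest of the 3. In CastB6 it stood at 33.2, 35.2, 34.1 and 33.3 TPM in libraries 1, 3, 5 and 6, and in MolfB6 at 33.8, 33.1, 36.8 and 31.9 TPM in libraries 1, 2, 3 and 6. In PwkB6 libraries 1, 3, 5 and 6 it stood at 35.2, 35.2, 33.2 and 57.9 TPM, and in the same libraries of SpretB6 at 32.0, 29.8, 33.7 and 32.0 TPM. PwkB6 6 was the highest library, and the 15 others lay between 29.8 and 36.8 TPM, so all 4 crosses overlapped. The means were 40.4 ± 11.7 TPM (SD) for PwkB6, 34.0 ± 0.909 for CastB6, 33.9 ± 2.08 for MolfB6 and 31.9 ± 1.61 for SpretB6, each over n = 4. Without PwkB6 6 the PwkB6 mean was 34.5 ± 1.16 TPM (SD, n = 3), and the log2 fold change of PwkB6 over the other 3 crosses went from 0.05 to -0.03, with no call in either case. On the TMM scale PwkB6 6 came down to 181 CPM, next to 178 CPM in CastB6 5, and the order of the crosses changed to 159 ± 16.1 in CastB6, 155 ± 17.6 in PwkB6, 150 ± 13.7 in MolfB6 and 139 ± 8.40 in SpretB6 (SD, n = 4 each). SpretB6 was the lowest cross on both scales.

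The listed Dnmt3a transcript, of 9685 bases, was the least abundant of the 3. It stood at 0.879, 1.74, 1.15 and 1.27 TPM in CastB6 1, 3, 5 and 6, and at 1.30, 1.97, 1.73 and 1.05 TPM in MolfB6 1, 2, 3 and 6. In PwkB6 1, 3, 5 and 6 it stood at 2.11, 1.84, 1.14 and 2.75 TPM, and in SpretB6 1, 3, 5 and 6 at 1.75, 1.50, 1.48 and 2.15 TPM. The highest library of a cross was 1.45 times its lowest in SpretB6 and 2.42 times in PwkB6, and all 4 crosses overlapped. The means were 1.96 ± 0.668 TPM (SD) for PwkB6, 1.72 ± 0.310 for SpretB6, 1.51 ± 0.416 for MolfB6 and 1.26 ± 0.358 for CastB6, each over n = 4. On the TMM scale SpretB6 and PwkB6 stood level at 13.8 ± 3.21 and 13.7 ± 3.19 CPM, above MolfB6 with 12.4 ± 4.43 and CastB6 with 10.8 ± 3.21 (SD, n = 4 each). CastB6 had the lowest mean on both scales.

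The listed Dnmt3b transcript, of 4320 bases, had the highest mean and the widest range. It stood at 35.1, 67.7, 74.9 and 20.8 TPM in CastB6 1, 3, 5 and 6, and at 32.1, 36.3, 35.5 and 38.2 TPM in MolfB6 1, 2, 3 and 6. In PwkB6 1, 3, 5 and 6 it stood at 69.6, 72.4, 37.8 and 103.9 TPM, and in SpretB6 1, 3, 5 and 6 at 64.4, 47.4, 52.7 and 47.6 TPM. CastB6 thus had 2 high and 2 low libraries, PwkB6 had 3 high libraries and a low one, and MolfB6 was uniformly low. The highest CastB6 library was 3.60 times its lowest in TPM and 4.42 times in TMM-scaled CPM, while in MolfB6 these ratios were 1.19 and 1.40. The means were 70.9 ± 27.0 TPM (SD) for PwkB6, 53.1 ± 7.98 for SpretB6, 49.6 ± 25.9 for CastB6 and 35.5 ± 2.52 for MolfB6, each over n = 4. On the TMM scale they were 216 ± 58.2 CPM in PwkB6, 192 ± 112 in CastB6, 185 ± 23.1 in SpretB6 and 126 ± 19.1 in MolfB6 (SD, n = 4 each), so CastB6 and SpretB6 changed places.

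**Figure D1:**
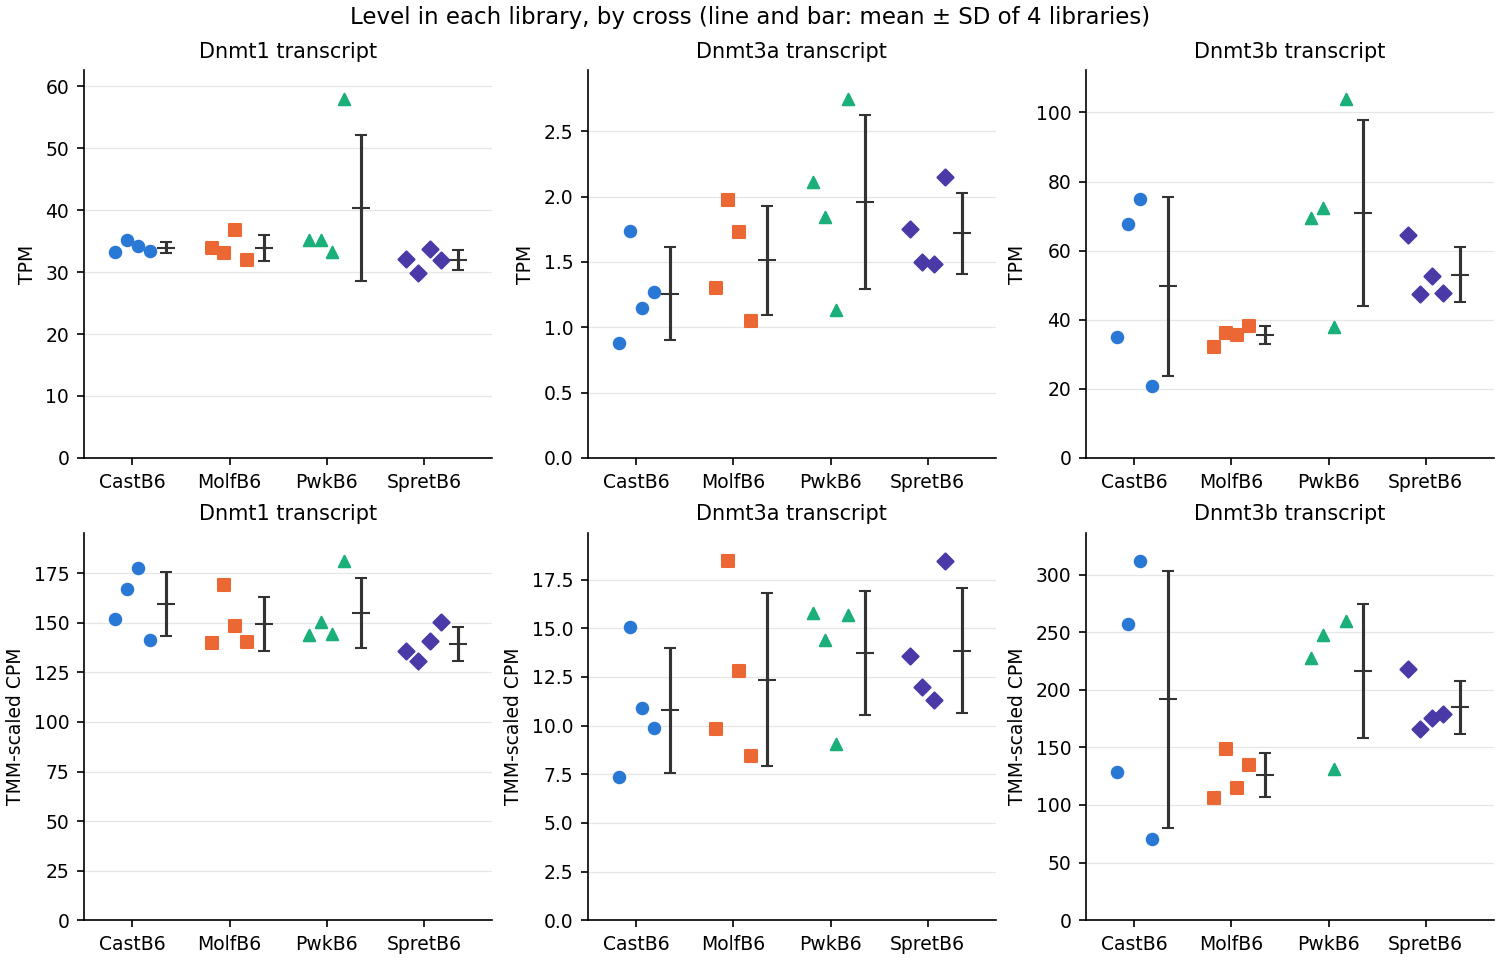
Level of the listed Dnmt1, Dnmt3a and Dnmt3b transcripts in each of the 16 libraries, as TPM (upper row) and as TMM-scaled CPM (lower row), with the 4 libraries of a cross in order of their number and the mean ± SD beside them. Dnmt1 lies near 34 TPM outside PwkB6 6, while Dnmt3b runs from 20.8 to 74.9 TPM within CastB6.

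No difference between crosses passed the test for any of the 3 transcripts. The joint test of the 4 crosses gave adjusted p = 0.539 for Dnmt1, 0.780 for Dnmt3a and 0.453 for Dnmt3b (edgeR quasi-likelihood F test, Benjamini-Hochberg over the 56721 tested transcripts). Of all tested transcripts, 9.73% were called by this joint test. Over the joint test, the 4 comparisons of a cross with the other 3 and the 6 pairs, edgeR called 0 of 33 member tests, with 2 at an unadjusted p below 0.05, and DESeq2 and limma voom also called 0 of 33, with 3 and 0 at that level. The shares of all tested transcripts that edgeR called were 4.50% for CastB6 against the other 3 crosses, 2.57% for MolfB6, 3.04% for PwkB6 and 7.10% for SpretB6. With shares this low, 0 edgeR calls among 3 members does not set them apart from other transcripts. DESeq2 called more of the whole table, 11022 transcripts in the joint test against 5519 for edgeR. No share over all transcripts is given here for limma voom or for an unadjusted p below 0.05. Those member counts therefore stand without a background.

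The precision of these negative results differed strongly among the 3. For Dnmt1 the largest difference in a pair was CastB6 over SpretB6, 0.19 on the log2 scale with an SE of 0.099 (edgeR adjusted p = 0.324), with a 95% interval from -0.02 to 0.41. Across its 6 pairs the intervals together spanned 0.833-fold to 1.33-fold. SpretB6 against the other 3 crosses gave -0.15 ± 0.081 (SE; edgeR adjusted p = 0.362). A difference of Dnmt1 between crosses of more than about 1.33-fold is thus outside each of the 6 unadjusted intervals on the TMM scale. They cover neither the choice of scaling nor the way reads were divided among transcripts. PwkB6 over SpretB6 went from 0.15 to 0.29 on log2(TPM + 1), and to 0.07 on the TMM scale without PwkB6 6, with no call in any of these.

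For Dnmt3a the largest difference in a pair was CastB6 under SpretB6, -0.36 on the log2 scale with an SE of 0.28 (edgeR adjusted p = 0.583), with a 95% interval from -0.95 to 0.23. The 6 pairwise intervals spanned 0.518-fold to 1.49-fold. PwkB6 and SpretB6, neighbours in the order of levels, differed by -0.01 ± 0.28 (SE; edgeR adjusted p = 0.992), and that interval still ran from -0.60 to 0.58. The data thus leave room for differences of this size in either direction.

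For Dnmt3b the widest contrasts involved MolfB6. MolfB6 against PwkB6 gave a log2 difference of -0.78 ± 0.35 (SE; unadjusted p = 0.0430, edgeR adjusted p = 0.393), with an unadjusted 95% interval from -1.54 to -0.03, and -0.68 (edgeR adjusted p = 0.602) without PwkB6 6. MolfB6 against the other 3 crosses gave -0.65 ± 0.30 (SE; unadjusted p = 0.0465, edgeR adjusted p = 0.372), an interval from -1.28 to -0.01. Neither passed over all tested transcripts, and the second had adjusted p-values from 0.124 to 0.643 over the alternatives tried. MolfB6 against SpretB6 gave -0.55 ± 0.35 (SE; edgeR adjusted p = 0.503), and CastB6 against MolfB6 0.61 ± 0.35 (SE; edgeR adjusted p = 0.500). The other pairs among CastB6, PwkB6 and SpretB6 lay between -0.17 and 0.23.

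The Dnmt3b ranges of MolfB6, 32.1 to 38.2 TPM, and SpretB6, 47.4 to 64.4 TPM, did not overlap. It was the only one of 18 combinations of a member and a pair of crosses where the ranges were apart, in TPM and in TMM-scaled CPM alike. Between these 2 crosses 15.7% of all tested transcripts had TPM ranges that did not overlap, and 5.53% were called. At that share, ranges that are apart do not set Dnmt3b off from other transcripts. The share was not computed for the other pairs or for TMM-scaled CPM, so the count over the 18 combinations has no background of its own. When only the 8 libraries of these 2 crosses entered the fit, the same difference of -0.55 passed (edgeR adjusted p = 0.0330), and that fit called 8.42% of its 50102 tested transcripts. It passed under none of the fits to all 4 crosses. The SD of log2 CPM was 0.22 in MolfB6, 0.17 in SpretB6, 0.98 in CastB6 and 0.45 in PwkB6. The fit to 2 crosses also differed in its filter, scaling, degrees of freedom and number of tests, and the part of any of these in the call was not tested. The share called in a pair with CastB6 was 2.76% for MolfB6, 3.76% for PwkB6 and 6.05% for SpretB6. It was 1.20% in MolfB6 against PwkB6, and PwkB6 against SpretB6 had 5.50%.

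**Figure D2:**
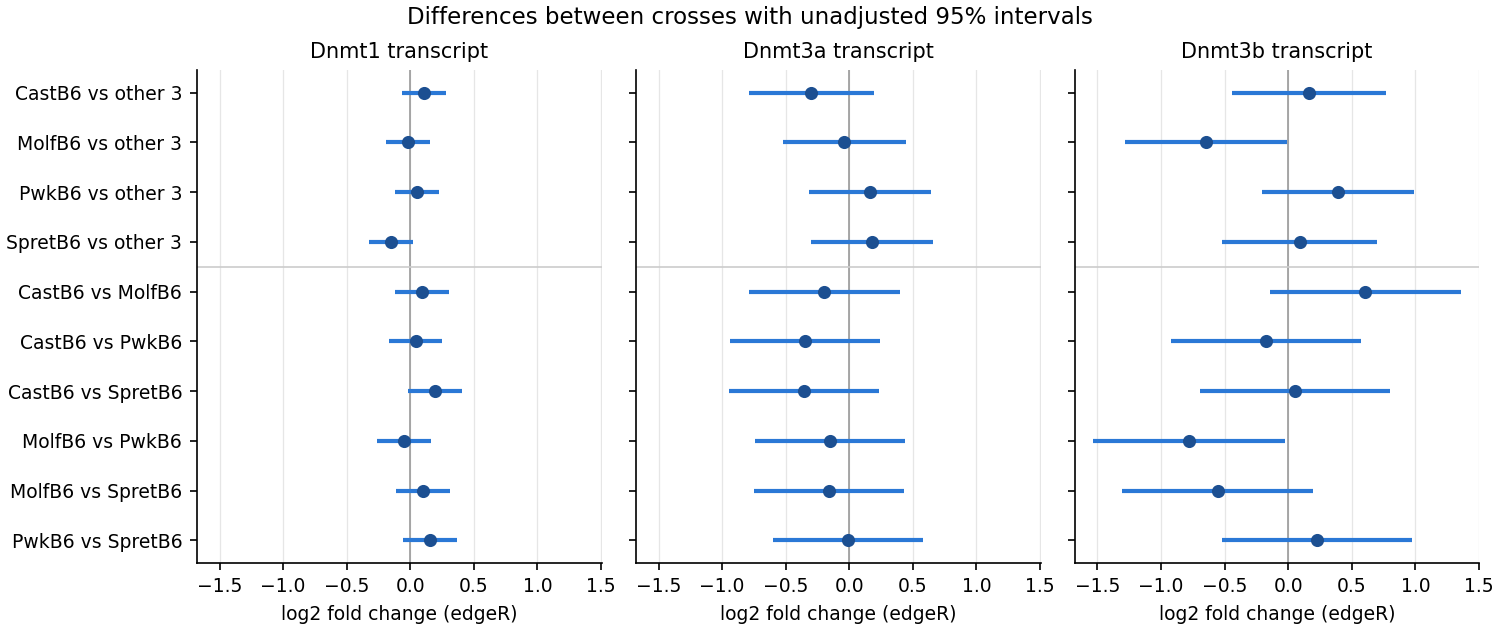
Log2 fold changes from edgeR (points) with unadjusted 95% intervals (lines) for the 3 transcripts, each cross against the other 3 above the grey line and the 6 pairs under it. The Dnmt1 intervals are the narrowest, and of the 30 intervals those of Dnmt3b for MolfB6 against the other 3 crosses and MolfB6 against PwkB6 lie just under 0.

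The 3 transcripts differed in their spread between libraries of the same cross. The SD of log2 CPM within a cross, pooled over the 4 crosses, was 0.13 for Dnmt1, 0.41 for Dnmt3a and 0.56 for Dnmt3b. All 3 belong to the 14180 tested transcripts with the highest mean level, which had a median SD of 0.26. Among these 6.73% of transcripts had a lower SD than Dnmt1, 81.7% had a lower SD than Dnmt3a and 92.4% had a lower SD than Dnmt3b. Dnmt1 was thus among the steadier well-expressed transcripts and Dnmt3b among the more variable ones. These places are descriptions with no test. Mean log2 CPM was 7.23 for Dnmt1, 3.62 for Dnmt3a and 7.39 for Dnmt3b, and the SDs were not matched for level within this set.

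The counting error of a single library was at most 1.25% for Dnmt1 (6374 reads), 4.66% for Dnmt3a (460 reads) and 1.48% for Dnmt3b (4558 reads), which takes reads as independent molecules and covers counting alone. The SD over mean of the TMM-scaled CPM of Dnmt3b was highest in CastB6 with 58.1%, followed by PwkB6 with 26.9%, MolfB6 with 15.1% and SpretB6 with 12.5%. None of the 3 transcripts had a whole read estimate in any of the 16 libraries to within 0.001, so each shared reads with other transcripts, and the error of dividing those reads is not in these figures. The part of the log2 CPM variance found between crosses rather than within them was 27.9% for Dnmt1, 15.7% for Dnmt3a and 24.4% for Dnmt3b, where the median over all tested transcripts was 30.5%. Some of this share arises even where crosses do not differ, and it was not corrected for that.

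**Figure D3:**
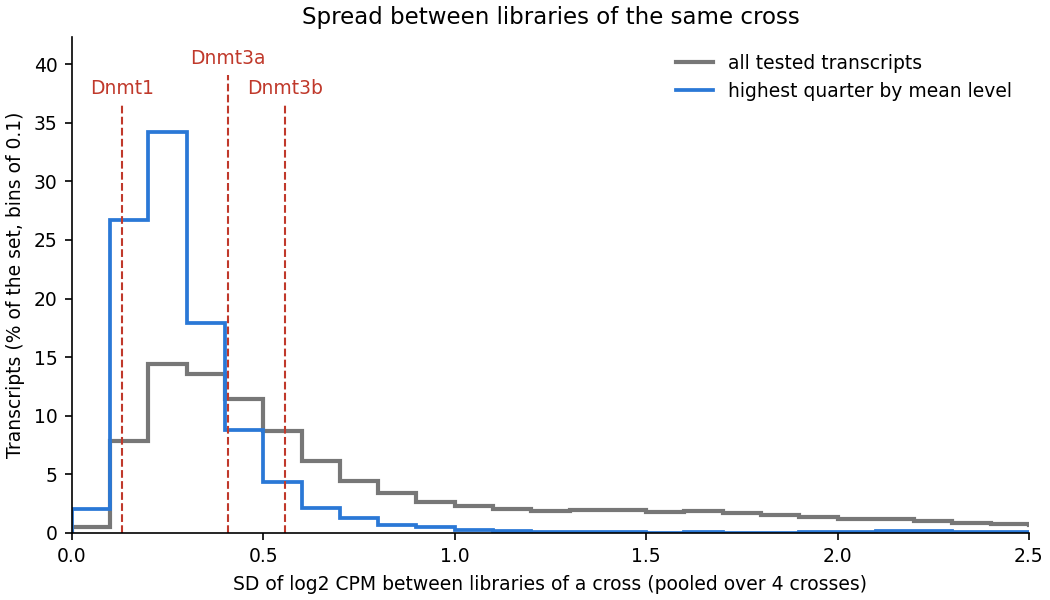
Distribution of the pooled SD of log2 CPM between libraries of the same cross, as the percentage of transcripts in bins of 0.1, for all tested transcripts (grey) and for the 14180 with the highest mean level (blue), drawn up to an SD of 2.5. Dashed lines mark Dnmt1 at 0.13, on the left flank of the blue curve, and Dnmt3a at 0.41 and Dnmt3b at 0.56, on its right flank.

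Ratios within a library do not depend on how that library is scaled, so they were used to compare the listed transcripts with each other. They are ratios of the RNA of single transcripts, not of enzymes or of whole genes. The Dnmt3b transcript stood at 0.624 to 2.19 times the Dnmt1 transcript in TPM, with a median of 1.53 over the 16 libraries. MolfB6 had the lowest geometric mean of this ratio, 1.05, with 0.950, 1.10, 0.966 and 1.20 in libraries 1, 2, 3 and 6. PwkB6 had a geometric mean of 1.70, SpretB6 of 1.65 and CastB6 of 1.29. The single lowest library was CastB6 6 with 0.624, and the highest was CastB6 5 with 2.19, so CastB6 spanned both ends. MolfB6 lay 0.55 under the 12 other libraries on the log2 scale, a difference of -0.55 that did not pass (two-sided exact permutation p = 0.0654, adjusted p = 0.328 over 12 tests, n = 4 against 12). Without CastB6 6 this difference was -0.67 and passed (exact permutation, adjusted p = 0.0440). CastB6 6 had the lowest ratio of the 12 other libraries, so leaving it out by itself widens the gap to MolfB6. No other single library left out made a ratio test pass.

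The Dnmt3b transcript stood at 16.4 to 65.3 times the Dnmt3a transcript in TPM, with a median of 34.4. CastB6 again held both ends, with 39.9, 39.0, 65.3 and 16.4 in libraries 1, 3, 5 and 6. PwkB6 was narrow, with 33.0, 39.3, 33.3 and 37.8 in the same libraries, although its Dnmt3b level alone varied 2.75-fold. In MolfB6 the ratio was 24.7, 18.4, 20.5 and 36.5 in libraries 1, 2, 3 and 6. The MolfB6 mean was 0.50 lower than that of the 12 others on the log2 scale, a difference of -0.50 (two-sided exact permutation p = 0.102, adjusted p = 0.328, n = 4 against 12).

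The Dnmt3a transcript stood at 0.0265 to 0.0671 times the Dnmt1 transcript. The geometric mean went from 0.0360 for CastB6 over 0.0434 for MolfB6 and 0.0475 for PwkB6 to 0.0534 for SpretB6. CastB6 differed from the 12 others by -0.41 on the log2 scale (two-sided exact permutation p = 0.0544, adjusted p = 0.328, n = 4 against 12) and SpretB6 by 0.35 (exact permutation p = 0.109, adjusted p = 0.328). With 1820 ways to choose 4 of 16 libraries, the smallest p this design can give is 0.000549. None of the 12 ratio tests passed.

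**Figure D4:**
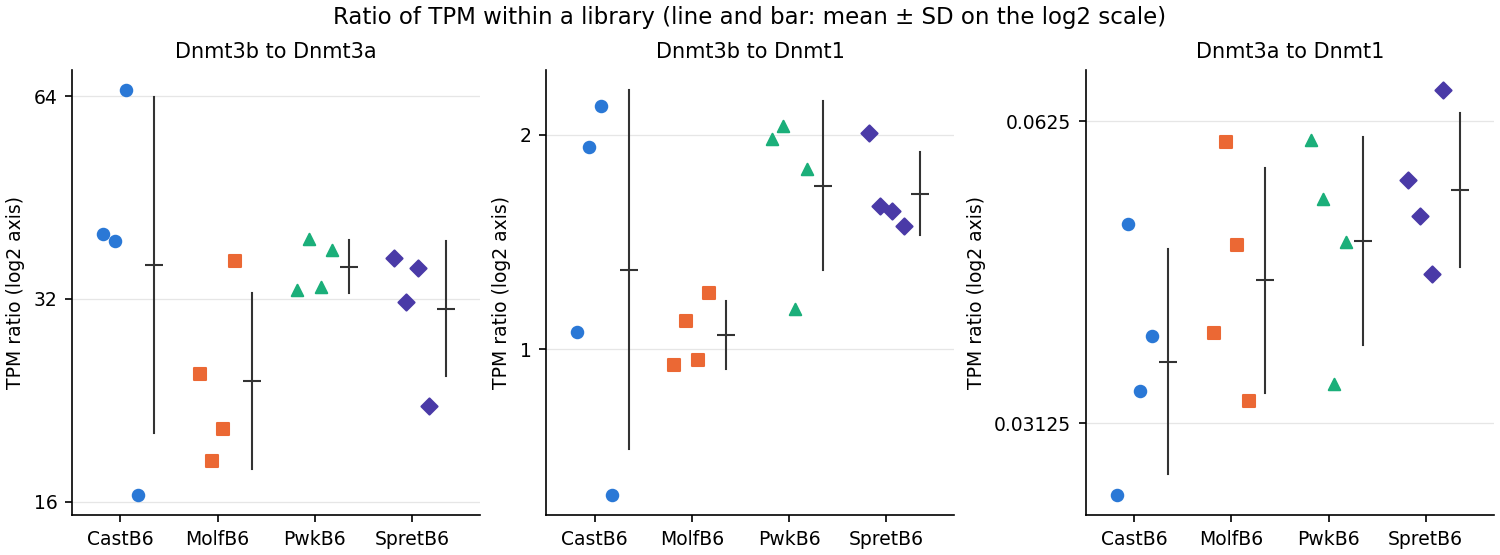
Ratio of TPM between members within each of the 16 libraries on a log2 axis, by cross, with the mean ± SD on the log2 scale beside the points of each cross. The Dnmt3b to Dnmt1 ratio of the MolfB6 libraries lies between 0.950 and 1.20, and CastB6 holds both the highest and the lowest library of both ratios with Dnmt3b.

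Over all 16 libraries the 3 transcripts tended to be high in the same ones, without passing the test. Over the 16 libraries Dnmt3a and Dnmt3b had Pearson's r = 0.503 (permutation p = 0.0472, adjusted p = 0.0758 over 3 pairs) and Spearman's rho = 0.550 (permutation p = 0.0292, adjusted p = 0.0876) in log2 CPM. Without the 2 libraries farthest from the median of Dnmt3a, r was 0.519. Dnmt1 and Dnmt3b had r = 0.498 (permutation p = 0.0505, adjusted p = 0.0758) and rho = 0.453 (permutation p = 0.0802, adjusted p = 0.120). Without PwkB6 6 and CastB6 5, the 2 libraries farthest from the median of Dnmt1, r was 0.216. Leaving them out also narrows the range of Dnmt1, and the part of these 2 libraries in the relation was not tested. With any 1 library left out, r ran from 0.378 to 0.578. Dnmt1 and Dnmt3a had r = 0.362 (permutation p = 0.167, adjusted p = 0.167) and rho = 0.359 (permutation p = 0.173, adjusted p = 0.173), and r was 0.426 without the same 2 libraries.

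After the mean of each cross was subtracted, r was 0.499 for Dnmt3a with Dnmt3b, 0.674 for Dnmt1 with Dnmt3b and 0.646 for Dnmt1 with Dnmt3a, given as a description. Within single crosses of 4 libraries r was uneven. In the order CastB6, MolfB6, PwkB6 and SpretB6, Dnmt3a with Dnmt3b had 0.545, 0.484, 0.966 and 0.154. Dnmt1 with Dnmt3b had 0.989, 0.693, 0.534 and -0.009, and Dnmt1 with Dnmt3a had 0.510, 0.965, 0.438 and 0.757. The r of other pairs of transcripts is not given here as a background. On log2 TPM all 3 pairs passed, with r = 0.552, 0.514 and 0.534 in the same order. In TPM all 3 transcripts were highest in PwkB6 6, and the points of a library share its scaling.

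**Figure D5:**
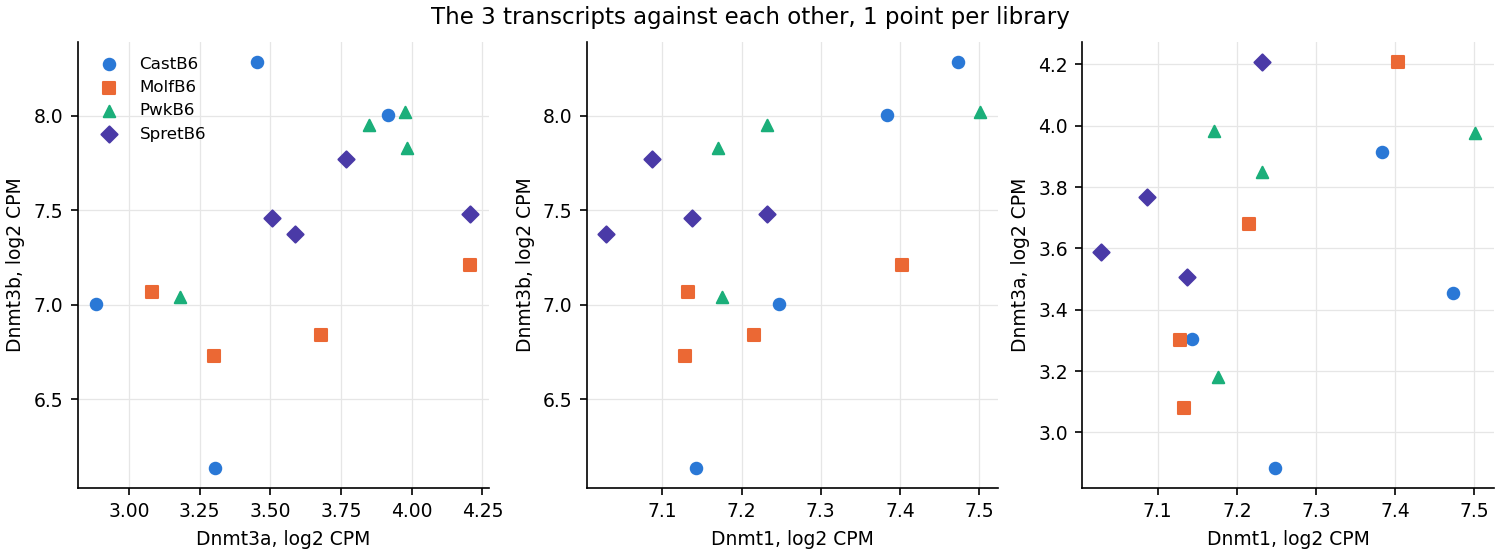
Log2 CPM of the 3 transcripts against each other, with 1 point for each of the 16 libraries and a colour and shape for each cross. The clouds run upward, with r from 0.362 to 0.503, and PwkB6 6 and CastB6 5 are the 2 rightmost points in both panels with Dnmt1 on the horizontal axis.

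Dnmt3a was lower in libraries with a higher total of estimated counts, by rank. This total holds only reads assigned to the listed transcripts, and the number of sequenced reads is not given here. Its log2 CPM had rho = -0.674 with the total estimated counts of the library (permutation p = 0.00501, adjusted p = 0.0301 over 6 relations, n = 16) and r = -0.627 (permutation p = 0.00910, adjusted p = 0.0546). Without the 2 libraries farthest from the median total r was -0.483, and after the mean of each cross was subtracted it was -0.602. CPM is itself divided by the library total, so the compared values share it. For Dnmt1 and Dnmt3b the r with this total was 0.00108 and -0.305, with adjusted permutation p of 0.997 and 0.380. No share of all transcripts with such a relation is given here. The fragment length correction of a library, 147 to 156 bases, had r = 0.506 with Dnmt3a (permutation p = 0.0457, adjusted p = 0.137). The part of the library total in the differences between libraries of Dnmt3a was not tested.

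The transcripts whose pattern was most like that of each member, by Pearson's r of log2 CPM over the 16 libraries among transcripts with a mean of at least 10 TPM, are given by their IDs, since the tables do not pair them with genes. For Dnmt3a they were ENSMUST00000003156.15 (r = 0.946, 72.3 ± 15.8 TPM) and ENSMUST00000017365.15 (r = 0.938, 40.5 ± 9.94 TPM; SD, n = 16). For Dnmt3b they were ENSMUST00000058793.14 (r = 0.859, 25.2 ± 5.19 TPM) and ENSMUST00000111298.6 (r = 0.839, 22.8 ± 5.69 TPM; SD, n = 16). For Dnmt1 they were ENSMUST00000071555.13 (r = 0.856, 127 ± 34.1 TPM) and ENSMUST00000091064.8 (r = 0.845, 24.3 ± 4.79 TPM; SD, n = 16). Each was the highest of about 9465 candidates or the next, so a high r is the outcome of the choice. With the cross means subtracted, the r of these 6 lay between 0.792 and 0.948.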

How the data were processed

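The authors deposited, per the file headers, 1 table per library that gives, for each transcript, its length and effective length beside the TPM and the estimated count of reads. Salmon, DESeq2 and mm10 are named in the submitters' processing notes. Not given in the sources used here were their versions, the transcript set, the strand and bias settings, and how reads with variants of the wild-derived parent were handled. The deposited estimated counts are fractional where reads match several transcripts.

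Estimated counts were rounded and tested with edgeR 4.0.16 (R 4.3.3) over all 16 libraries and 56721 transcripts kept by filterByExpr (minimum count 10, minimum total 15), with TMM scaling, quasi-likelihood F tests and a Benjamini-Hochberg threshold of 0.05. The scripts were tested on simulated data. Log2 CPM used a prior count of 2. Ratios were tested by exact permutation of libraries and correlations by 100000 permutations (scipy 1.17.1). Alternatives were RLE scaling, DESeq2 1.42.0, limma 3.58.1 (voom, and log2 TPM with a pseudocount of 1 or 0.1), other filters, a replicate block, only the 2 crosses of a pair, and leaving out each library.

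The members, lists and tests were chosen with earlier results of these data known. The relations with the library total and fragment length were added after the data were seen. Named transcripts are the 3 members and, for each, the 2 most correlated with a mean TPM of at least 10. RefSeq symbols were matched for 3 of 3 members, and 0 of the listed IDs could be matched to that table.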

Additional observations from a re-analysis of the deposited data

Results flagged for a closer look

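In 44 groups of 4, each was checked for a single library far from the others, over TPM, TMM-scaled CPM and ratios of the members, library totals and TMM factors. Chance alone marks about 1 group in 20, which is 2.2 groups here, and 2 were found, both for Dnmt1 in PwkB6. Library PwkB6 6 had 57.9 TPM of Dnmt1, where its 3 fellow PwkB6 libraries had 33.2 to 35.2. In TMM-scaled CPM the value was 181.1 beside 144 to 150, just past the limit. All 3 members had their highest TPM in this library, 1.74 times the median of the 15 others for Dnmt1, 1.83 times for Dnmt3a and 2.19 times for Dnmt3b, and its TMM factor was the highest of the 16. After TMM scaling Dnmt3a ranked 4 and Dnmt3b 2 there. The cause was not tested.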

How the results depend on the processing

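Over 810 recomputed member tests 1 passed, Dnmt3b in MolfB6 against SpretB6 with only those 2 crosses in the fit (-0.554, 1 of 18 pair tests). That fit called 8.42% of all its tested transcripts. The 810 tests reuse the same libraries and are not independent of each other. The lowest adjusted p of the joint test was 0.150. In 41 of the 810 the sign turned with no call on either side, as for Dnmt3b in CastB6 against SpretB6 (0.05, and -0.25 on log2(TPM + 1)). For the replicate block, the libraries share only a number: 1 of 21 same-numbered pairs had deviations correlated above 0.1. Same-numbered pairs ran from r = -0.067 to 0.133, and pairs with different numbers from -0.195 to 0.219. Number 2 occurs only in MolfB6, so the block fits MolfB6 2 exactly and that library adds nothing to the comparisons. With the block, Dnmt3a in CastB6 against MolfB6 turned from -0.196 to 0.145, with no call in either case. The block gave 0 member calls (lowest adjusted p 0.360) and 3581 calls in the joint test against 5519. With 1 library left out, 0 to 1 of 12 ratio tests passed, with Dnmt3b to Dnmt1 in MolfB6 from -0.670 (without CastB6 6, passed) to -0.505. Of 3 correlations 0 to 2 passed (2 without MolfB6 2), r running from 0.466 to 0.607 for Dnmt3a with Dnmt3b and 0.378 to 0.578 for Dnmt1 with Dnmt3b. On log2 TPM 3 passed (0.552, 0.514, and 0.534 for Dnmt1 with Dnmt3a). The cause was not tested. The transcripts called in the whole table ran, over the alternatives, from 3581 to 11022 in the joint test (main 5519), 1327 to 5520 in CastB6 (2552), 640 to 3400 in MolfB6 (1458), 975 to 4708 in PwkB6 (1724) and 2688 to 6566 in SpretB6 (4029). In pairs they ran from 797 to 3817 for CastB6 with MolfB6 (1564), 658 to 5711 for CastB6 with PwkB6 (2134), 2386 to 6265 for CastB6 with SpretB6 (3431), 304 to 2501 for MolfB6 with PwkB6 (682), 1717 to 5636 for MolfB6 with SpretB6 (3136) and 1980 to 6017 for PwkB6 with SpretB6 (3121). DESeq2 gave each highest count, and the lowest came without CastB6 5 in CastB6, without PwkB6 1 in PwkB6 and from the block in MolfB6. Single libraries moved these counts by over 1.5 times: in MolfB6 848 were called without MolfB6 1 and 869 without MolfB6 6, and PwkB6 had 3044 without PwkB6 5. CastB6 with MolfB6 had 926 without CastB6 5, 871 without MolfB6 1, 1008 without MolfB6 3 and 994 without MolfB6 6. CastB6 with PwkB6 had 1340 without CastB6 3, 1060 without CastB6 5, 1251 without PwkB6 1 and 3380 without PwkB6 5, and MolfB6 with PwkB6 had 437 without MolfB6 1.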
